A study of Mus musculus with 4 samples.

Results

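The genes described here encode 10 proteins with which a cell detects nucleic acids in the wrong place, or passes that signal on. They are the RNA sensors Ddx58 (RIG-I), Ifih1 (MDA5), Dhx58 (LGP2) and Tlr3, the Z-nucleic acid sensor Zbp1, the double-stranded RNA kinase Eif2ak2 (PKR), the RNA editing enzyme Adar, and the signalling proteins Mavs, Tmem173 (STING) and Tbk1. They were chosen by symbol, with earlier results of these data known. All 10 were found among the 17762 genes listed in at least 1 library. The RNA came from adenomas of C57BL/6 mice aged 110 days that carried the ApcMin mutation, which truncates the tumour suppressor Apc and leads to intestinal tumours. Both groups carried ApcMin: 2 libraries had wild-type Strap (WT) and 2 were labelled Strap KO, named StrapIEKO in the study's design. Strap encodes a WD-repeat protein that inhibits TGF-beta receptor signalling and also binds the SMN complex, which assembles spliceosomal particles. The sources used here do not give the transgene or cells used to delete Strap, nor how many mice or adenomas went into a library.

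RIG-I and MDA5 bind double-stranded or triphosphate-bearing RNA in the cytosol through a helicase core, and signal through paired CARD domains to MAVS on mitochondria. LGP2 shares the helicase but lacks the CARDs, and is known for tuning the other two. STING, on the endoplasmic reticulum, answers the cyclic dinucleotide made by the DNA sensor cGAS. MAVS and STING both recruit the kinase TBK1, which phosphorylates IRF3 and so switches on type I interferon genes. Interferon in turn induces many of the sensors. PKR stops translation when it binds double-stranded RNA, ADAR edits adenosines in such RNA and so hides it from MDA5 and PKR, and ZBP1 can start necroptosis through RIPK3.

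A library held between 14084814 and 15640931 expected counts in total, and 15270 to 16227 genes were listed in each. Strap itself was at 157 and 112 CPM (counts scaled to library size) in WT replicates 1 and 2 and at 20.5 and 24.8 CPM in KO replicates 1 and 2. The female transcript Xist was at 968 and 197 CPM in replicate 1 of WT and KO and at most 0.954 CPM in replicate 2 of each. Colon adenoma is the labelled tissue, while the extraction text speaks of intestinal adenomas. The epithelial genes Epcam and Vil1 were at 1541 CPM or more in every library. The small-intestinal genes Sis (1969 to 4707 CPM) and Apoa1 (2635 to 7927 CPM) were high in all 4, and the colon gene Car1 was at most 4.22 CPM. WT replicate 2 stood apart in such genes. It was lowest for all 8 small-intestinal genes, which summed to 6869 CPM there and to 15888 to 21447 CPM elsewhere. It was highest for 6 of 8 colon genes, which summed to 3806 CPM there and to 1379 to 1917 CPM elsewhere. Muc2 made up 3657 CPM of the colon sum there and 1036 to 1679 CPM elsewhere. What part this has in the sensor values was not tested. Each group has n = 2, and each ± below is an SD between those libraries, which may be technical.

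The comparison asked whether the sensing genes differ between Strap KO and WT adenomas. All 10 were measured in every library and tested. All 10 had a fold change above 1 in KO, against 50.3% of the 12769 genes tested, and their median log2 fold change was 0.67, against 0.00 over all genes. Dhx58 and Zbp1 stood furthest out, at 12.8-fold and 10.1-fold, while Adar, Ddx58, Ifih1 and Eif2ak2 lay between 1.57-fold and 1.86-fold. Mavs, Tlr3, Tmem173 and Tbk1 lay between 1.03-fold and 1.31-fold. In 7 of the 10 each KO value exceeded each WT value, an order found in 25.5% of all genes, and in 0 each KO value was below each WT value, against 24.6% of all genes. Taken within the libraries of high Xist (replicate 1) and of low Xist (replicate 2), KO over WT in CPM was 18.4-fold and 9.03-fold for Dhx58, 15.6-fold and 8.11-fold for Zbp1, and 1.5-fold to 2.28-fold for Adar, Ddx58, Ifih1 and Eif2ak2. It was 1.02-fold to 1.79-fold for Mavs and Tlr3, while Tmem173 and Tbk1 were lower in KO among the former (0.739 and 0.853 times WT) and higher among the latter.

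No member passed the adjusted threshold of 0.05 in edgeR's quasi-likelihood test (0 of 10 higher, background 0.00783%; 0 of 10 lower, background 0%). The 1 gene that passed was Ifi44, an interferon-induced gene that is not a member. At an unadjusted p under 0.05, edgeR gave 6 of 10 higher (Dhx58, Zbp1, Adar, Eif2ak2, Ifih1 and Ddx58) against 7.08% of all genes, and 0 lower against 8.69%. DESeq2 called 3 higher at its adjusted p, Dhx58, Zbp1 and Adar, against 1.82% of all genes, and 0 lower against 3.32%. limma on log2(FPKM + 1) called 0 members in either direction and 0 among all genes. At an unadjusted p under 0.05, the same 6 members were higher by DESeq2 (6.99% of all genes) and by limma (7.53%), and 0 were lower (9.55% and 7.12%). With 2 libraries a group, the choice of test decided which members passed. In bulk tissue, more cells of a kind and more RNA per cell cannot be told apart.

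**Figure D1:**
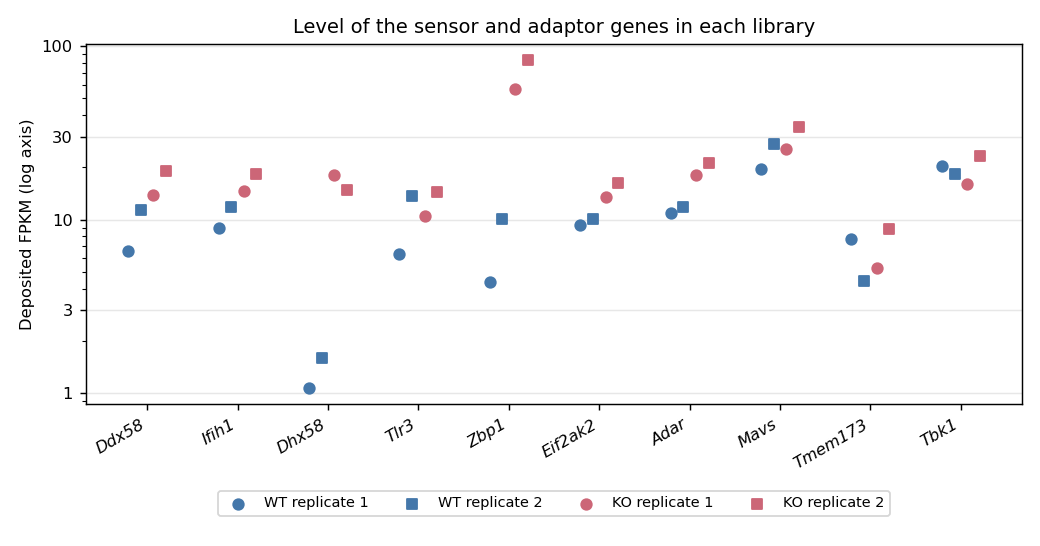
Deposited FPKM on a log axis for the 10 genes, with 1 point per library; blue is WT, red is KO, circles are replicate 1 and squares replicate 2. The KO points of Dhx58 and Zbp1 sit far above their WT points, those of Ddx58, Ifih1, Eif2ak2 and Adar sit a little above, and those of Tlr3, Mavs, Tmem173 and Tbk1 overlap with WT.

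**Figure D2:**
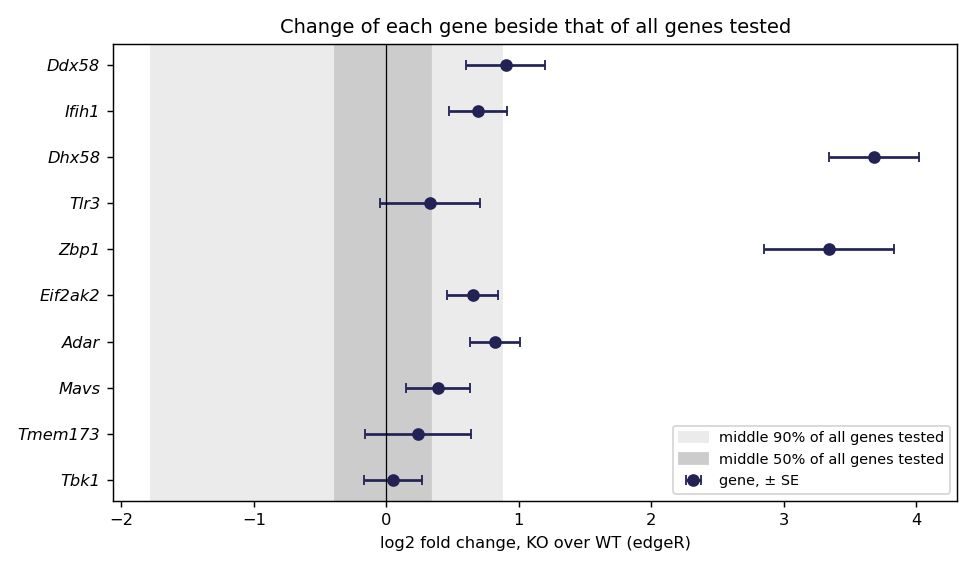
log2 fold change of KO over WT from edgeR, with bars of 1 SE, for each gene, over grey bands that hold the middle 50% (-0.39 to 0.33) and the middle 90% (-1.77 to 0.87) of all genes tested. Dhx58 and Zbp1 lie far beyond the wider band, Ddx58 lies at its upper edge, and Tbk1 lies near 0.

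Among the RIG-I-like receptors, the least abundant in WT was the one with the widest difference. Dhx58 (chromosome 11, 100694884 to 100704271, mm10), which encodes LGP2, had expected counts of 39 and 57 in WT replicates 1 and 2 and of 674 and 490 in KO replicates 1 and 2. Its FPKM, a level per transcript length and library size, was 1.07 and 1.58 in WT and 18.2 and 14.7 in KO. The groups did not overlap, and the lower KO library was still 9.03 times the higher WT library in CPM. On the log2 scale the fold change was 3.68 (SE 0.34), with an adjusted p of 0.0932 in edgeR and 2.91e-16 in DESeq2, and Dhx58 ranked number 6 by p among all genes tested. A log2 fold change of at least 3 was found in 2 members, Dhx58 and Zbp1, and in 0.274% of all genes. Without WT replicate 2 the edgeR call of Dhx58 was made (4.0, adjusted p = 0.00562), and without any other library it was not (3.41 to 3.89, adjusted p from 0.114 to 0.588).

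Ddx58 (chromosome 4, 40203777 to 40239825), the RIG-I gene, had expected counts of 495 and 843 in WT and 1058 and 1304 in KO. Its FPKM was 6.56 and 11.3 in WT and 13.8 and 18.9 in KO. The KO libraries lay above, but the higher WT library came within 1.32-fold of the lower KO library, while the WT libraries differed from each other by 1.72-fold. Its log2 fold change of 0.90 (SE 0.30) had an adjusted p of 0.271 in edgeR. It was 0.54 without WT replicate 1 and 1.36 without WT replicate 2. Ifih1 (chromosome 2, 62595618 to 62646255), the MDA5 gene, behaved alike in order. It had expected counts of 760 and 987 in WT and 1253 and 1411 in KO, or an FPKM of 9.0 and 11.8 against 14.6 and 18.4. Its log2 fold change was 0.69 (SE 0.22, edgeR adjusted p = 0.263), with WT replicate 1 again the lowest library.

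Ratios within a library do not depend on its depth, and they show how the composition of the receptor family differed. Dhx58 stood at 0.163 and 0.140 of the Ddx58 level in WT (FPKM ratio), and at 1.32 and 0.777 in KO. Against Ifih1 the Dhx58 ratio was 0.119 and 0.134 in WT and 1.24 and 0.802 in KO. So the gene of the receptor without CARDs had the lowest level of the family in WT by a wide margin and was near the level of the other two in KO. The ratio of Ifih1 to Ddx58 was 1.37 and 1.05 in WT and 1.06 and 0.969 in KO, a range in which the genotypes overlapped. With 2 libraries against 2, an exact two-sided permutation test cannot give a p below 0.333, so these ratios are given as values only.

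**Figure D3:**
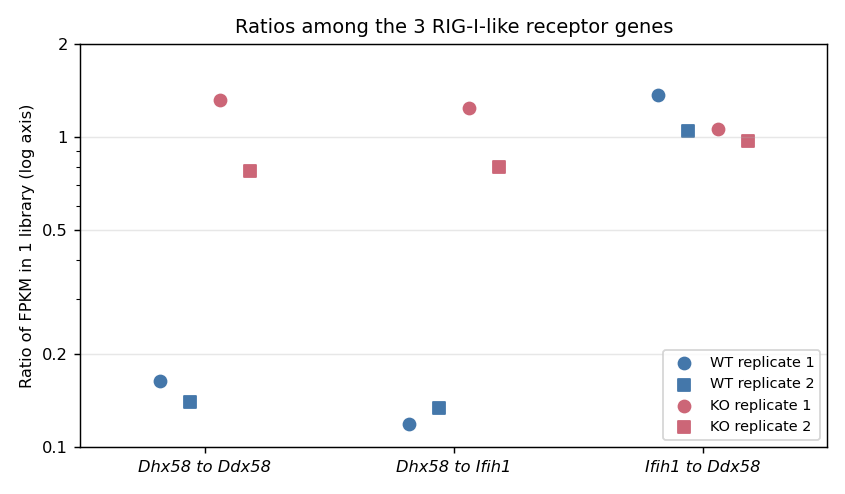
Ratio of the FPKM of 2 receptor genes within each library, on a log axis, with WT in blue, KO in red, circles for replicate 1 and squares for replicate 2. Both ratios with Dhx58 lie between 0.119 and 0.163 in WT and between 0.777 and 1.32 in KO, and the ratio of Ifih1 to Ddx58 lies near 1 in all 4 libraries.

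Zbp1 (chromosome 2, 173206612 to 173218959) encodes the sensor of left-handed Z-form nucleic acids. Its expected counts were 74 and 193 in WT against 1081 and 1490 in KO, and its FPKM was 4.37 and 10.1 in WT and 56.4 and 82.9 in KO. The groups were wide apart, with the lower KO library at 5.90 times the higher WT library in CPM, but the WT libraries differed by 2.64-fold. Zbp1 had a log2 fold change of 3.34 (SE 0.49), with an adjusted p of 0.105 in edgeR and 2.84e-09 in DESeq2. Without WT replicate 2 it was 4.22 (edgeR adjusted p = 0.00424), and without WT replicate 1 it was 2.79 (0.124). Zbp1 took 4.59% and 8.38% of the summed FPKM of the 10 genes in WT, and 29.4% and 32.7% in KO. The deposited transcript length of Zbp1, an average over its transcripts, was 1159 bases in WT replicate 1 and 1284 to 1342 bases in the other 3 libraries.

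Zbp1 acts in cell death with partners whose genes form a list of 6. In edgeR, an unadjusted p under 0.05 was reached by 2 of 6 partners, both higher (7.08% of all genes), and the median log2 fold change was 0.03. Mlkl, whose product ruptures the membrane in necroptosis, was at 11.7 and 12.1 CPM (WT) against 29.8 and 44 CPM (KO) (log2 fold change 1.63, adjusted p = 0.131 in edgeR and 0.000527 in DESeq2). Ripk3, the kinase that ZBP1 engages and that activates MLKL, was at 49.9 and 47.6 CPM (WT) against 74.7 and 68.3 CPM (KO) (0.55, edgeR adjusted p = 0.271). Casp8, the protease that holds necroptosis back, was at 136 and 142 CPM (WT) against 106 and 124 CPM (KO), and its regulator Cflar at 63.9 and 64.8 against 53.8 and 56.5 CPM. Both of these were lower in each KO library than in either WT library, an order found in 24.6% of all genes. Neither passed in edgeR (adjusted p 0.529 and 0.577).

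Adar and Eif2ak2 had smaller differences with the tightest replicates of the 10. Adar (chromosome 3, 89714469 to 89753455) had expected counts of 985 and 1055 in WT and 1654 and 1749 in KO, with an FPKM of 10.9 and 11.9 against 18.1 and 21.3. Libraries of the same group differed by 1.08-fold in WT and 1.05-fold in KO in CPM, and the groups by at least 1.65-fold. Adar had a log2 fold change of 0.82 (SE 0.19), with an adjusted p of 0.199 in edgeR and 0.0244 in DESeq2. It lay between 0.74 and 0.90 in every alternative tried. Adar shares 16.8% of its annotated exon bases with Chrnb2 on the opposite strand, and Chrnb2 had 48 to 72 expected counts per library. Smaller overlaps on the opposite strand were annotated for Tlr3 (7.32%, with Gm45542), Dhx58 (4.31%, with Dhx58os) and Eif2ak2 (with Gm26637 and n-R5s29). None of these other genes was listed by name in any library.

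Eif2ak2 (chromosome 17, 78850504 to 78882572), the PKR gene, had expected counts of 615 and 661 in WT and 904 and 988 in KO. Its FPKM was 9.29 and 10.1 in WT and 13.5 and 16.4 in KO, and in CPM the libraries of a group differed by 1.09-fold in each genotype. The log2 fold change was 0.65 (SE 0.19, edgeR adjusted p = 0.245). Eif2ak2 overlaps the annotated gene Gm6548 (log2 fold change 0.82, edgeR adjusted p = 0.249), and its expected counts were not whole numbers, so part of its value rests on reads that also fit elsewhere. The ratio of Adar to Eif2ak2 in FPKM was 1.18 in each WT library and 1.35 and 1.30 in KO. Zbp1, by contrast, stood at 0.470 and 0.999 of the Eif2ak2 level in WT and at 4.19 and 5.07 in KO.

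The RefSeq table of start regions (GRCm38.p6, 250 bases before to 50 bases after an annotated start) held 9 regions of 7 of the 10 genes: Ddx58, Ifih1, Tlr3, Eif2ak2, Adar, Mavs and Tbk1. They were searched on both strands for GAAA, any 2 bases and GAAA again, the core of the interferon-stimulated response element, the site through which interferon-activated factors bind. It was found in 3 of the 9 regions, 1 each of Ifih1, Ddx58 and Eif2ak2, in each case just after the start, and in 3.06% of the 12954 regions of all tested genes. The matches are shown because these 3 genes were all higher in both KO libraries. Adar and Mavs were also higher in both KO libraries in CPM, and held no full match. Dhx58 and Zbp1, the members with the widest differences, and Tmem173 had no region to search. Whether the motif goes with the change was not tested. Each line is 30 bases on the gene's strand, 5′ to 3′, with the match in capitals, and the Ddx58 match reads on the other strand.
Ifih1: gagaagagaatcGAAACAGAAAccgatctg
Ddx58: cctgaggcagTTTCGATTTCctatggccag
Eif2ak2: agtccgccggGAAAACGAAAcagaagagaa
They lie at chr2:62646206-62646235, chr4:40239804-40239833 and chr17:78882535-78882564, all on the minus strand, with matches from base 33, 3 and 19 after the start.

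Adar, which has 3 annotated start regions, held no full match. A shortened core, GAAANNGAA, was searched after the values were seen. It lies within the longer one, so Ifih1, Ddx58 and Eif2ak2 match it as well. It was found in 4 of the 9 regions, 1 for each of these genes and Adar, and in 6.94% of the regions of tested genes. In Adar it was found at the furthest downstream start, once at the far upstream end and once from base 34 to base 42 after the start, within chr3:89730738-89730767 on the plus strand. The downstream match reads as follows, in the same format.
Adar: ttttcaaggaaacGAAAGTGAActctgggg
The gamma-activated site core, TTCNNNGAA, which reads the same on both strands, was found in Adar (bases 23 to 31 of the same region) and in Eif2ak2 (178 to 170 bases before the start), and in 6.99% of the regions of tested genes. Mavs, Tbk1 and Tlr3 held none of these 3 motifs in the regions searched. A match is a stretch of letters and not a measured binding site.

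Tlr3 (chromosome 8, 45395665 to 45411075) encodes the endosomal receptor for double-stranded RNA, which signals through TICAM1 and not through MAVS. Its expected counts were 416 and 897 in WT against 699 and 870 in KO, and its FPKM was 6.31 and 13.8 in WT and 10.4 and 14.5 in KO. WT replicate 1 was low and WT replicate 2 was near KO replicate 2, so the groups overlapped. The log2 fold change was 0.33 (SE 0.38, edgeR adjusted p = 0.698), and it was -0.14 without WT replicate 1 and 1.02 without WT replicate 2. The WT libraries differed by 2.18-fold in CPM, which is more than the difference between the genotypes.

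The shared adaptors and the kinase below them showed little difference. Mavs (chromosome 2, 131234063 to 131248025) had expected counts of 873 and 1188 in WT and 1155 and 1405 in KO, with an FPKM of 19.7 and 27.2 against 25.7 and 34.1. In scaled CPM the lower KO library exceeded the higher WT library by 1.02-fold, and in FPKM the order of these libraries was the reverse. The log2 fold change of Mavs was 0.39 (SE 0.24, edgeR adjusted p = 0.467). Tmem173 (chromosome 18, 35733678 to 35740554), the STING gene, had expected counts of 265 and 150 in WT and 184 and 280 in KO, with an FPKM of 7.72 and 4.4 against 5.25 and 8.88. Each genotype held 1 high and 1 low library, and the log2 fold change of 0.24 (SE 0.40, edgeR adjusted p = 0.795) was -0.09 without WT replicate 2 and -0.09 without KO replicate 2.

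Tbk1 (chromosome 10, 121546455 to 121586794) had expected counts of 936 and 834 in WT and 750 and 977 in KO. Its FPKM was 20.4 and 18.4 in WT and 16.1 and 23.4 in KO, so that KO held both the lowest and the highest library. The log2 fold change was 0.05 (SE 0.22, edgeR adjusted p = 0.938), and -0.16 without KO replicate 2. The kinase gene was thus at 1.03 times the WT level on average, while the sensor Dhx58 in the same libraries was at 12.8 times. That these changes differ from each other was not tested.

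The order of the 10 genes by level differed between the genotypes. In WT, Mavs (23.4 ± 5.35 FPKM) and Tbk1 (19.4 ± 1.41) were highest and overlapped each other, Adar, Ifih1, Tlr3, Eif2ak2, Ddx58, Zbp1 and Tmem173 followed in ranges that overlapped with a neighbour, and Dhx58 (1.33 ± 0.361) lay below all of them. In KO, Zbp1 (69.6 ± 18.8 FPKM) lay above all others and Mavs (29.9 ± 5.97) came next. Tmem173 (7.07 ± 2.57) was lowest in both KO libraries. Between these stood Adar, Tbk1, Ddx58, Ifih1, Dhx58, Eif2ak2 and Tlr3, with means of 12.5 to 19.7 FPKM and ranges that overlapped with a neighbour. The summed FPKM of the 10 genes was 95.3 and 121 in WT and 192 and 253 in KO.

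KO replicate 2 also carried more RNA of T and natural killer cell genes. The summed level of 17 T and natural killer cell genes was 59.7 and 41.4 CPM in the WT libraries, 35.3 CPM in KO replicate 1 and 300 CPM in KO replicate 2, where 16 of the 17 were highest. The granzyme gene Gzma was at 26.4 and 15 CPM in the WT libraries, 15 CPM in KO replicate 1 and 152 CPM in KO replicate 2, and Ncr1, a natural killer cell marker, was listed in KO replicate 1 alone. The 10 B and plasma cell genes summed to 202 and 182 CPM in the WT libraries and 159 and 129 CPM in KO, most of it Sdc1. Of these 10, 4 were highest in KO replicate 2 and 3 in WT replicate 1. Dendritic cell genes other than the interferon-induced Bst2 summed to 2.53 to 8.65 CPM, with Clec9a and Batf3 listed in KO replicate 2 alone. The 11 macrophage and monocyte genes summed to 94.5 and 103 CPM in the WT libraries and 85.0 and 80.0 CPM in KO, most of it Mertk and Itgam, with C1qa and Csf1r not listed in KO replicate 1. Of the 10 sensor and adaptor genes 9 were also highest in KO replicate 2, Zbp1 among them (73.8 CPM in KO replicate 1 and 102 CPM in KO replicate 2). Dhx58 was the exception, at 46.0 CPM in KO replicate 1, where the T and natural killer cell sum was lowest, and 33.4 CPM in KO replicate 2. Without KO replicate 2 the log2 fold changes were 3.89 for Dhx58, 3.09 for Zbp1 and 0.78 for Adar (edgeR adjusted p = 0.344 for each). What part these cells have in the sensor values was not tested.

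WT replicate 1 stood apart in some endothelial and fibroblast genes. The 7 endothelial genes summed to 44.6 CPM there and to 1.91 to 2.6 CPM in the other 3 libraries, with Cdh5 at 35.6 CPM against at most 0.649 CPM. Of these 7, 5 were highest there, while Pecam1 was highest in KO replicate 2 (1.29 CPM) and Plvap in KO replicate 1 (0.615 CPM). The 8 fibroblast genes summed to 13.4 CPM there and to 2.19 to 4.77 CPM elsewhere, with Pdgfra at 5.45 CPM against at most 0.324 CPM. Of these 8, 6 were highest in WT replicate 1 and 2 in KO replicate 2. The 6 smooth muscle genes differed less, with sums of 4.88 CPM in WT replicate 1 and 1.91 to 3.2 CPM elsewhere. WT replicate 1 was also the lowest library for 8 of the 10 sensor and adaptor genes, all but Tmem173 and Tbk1. Without it the log2 fold changes were 3.41 for Dhx58, 2.79 for Zbp1, 0.75 for Adar, 0.57 for Eif2ak2, 0.54 for Ddx58 and 0.49 for Ifih1, none past the adjusted threshold in edgeR. What part stromal cells have in these values was not tested.

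Genes around the sensors were described by 11 lists with 153 memberships, of which 134 matched a gene and 122 were tested. Of these 122, 74 were higher and 48 lower in KO, and the median was 0.10 on the log2 scale. In edgeR no gene of the lists passed (0 higher, 0 lower), and an unadjusted p under 0.05 was reached by 22 of the 122 that were higher and 3 that were lower, against 7.08% and 8.69% of all genes. DESeq2 called 12 higher and 0 lower, against 1.82% and 3.32%. The same shares are the background of the counts in each list below. Each KO value exceeded each WT value in 38, and each was below in 24, which is 31.1% and 19.7% of the 122, against 25.5% and 24.6% of all genes.

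Cofactors of the RIG-I-like receptors held 3 of the genes that DESeq2 called. Of 13 tested 9 were higher (median 0.28 on the log2 scale), and 3 passed an unadjusted p under 0.05 in edgeR. Ddx60, a helicase described as a helper of RIG-I, was at 5.65 and 10.6 CPM (WT) against 54.6 and 72.6 CPM (KO) (log2 fold change 2.96, adjusted p = 0.1 in edgeR and 4.61e-10 in DESeq2). Ifit1, which binds RNA without a 2′-O-methylated cap, was at 2.31 and 10.7 CPM (WT) against 90.4 and 51.5 CPM (KO) (3.45, 0.18 and 1.32e-05). The expected counts of Ifit1 were not whole numbers, so part of its value rests on reads that also fit elsewhere. Trim25, a ubiquitin ligase that activates RIG-I, was at 110 and 96.6 CPM (WT) against 194 and 187 CPM (KO) (0.88, 0.199 and 0.00872). Rnf135, the ligase Riplet, was at 6.10 and 6.81 CPM (WT) against 11.7 and 9.40 CPM (KO) (0.71, edgeR adjusted p = 0.381).

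The 13 tested genes that restrain these receptors had a median of 0.10 on the log2 scale. At an unadjusted p under 0.05 in edgeR, 2 were higher and 1 lower. Nlrx1, a mitochondrial inhibitor of MAVS signalling, was at 12.4 and 12.6 CPM (WT) against 25.1 and 26.7 CPM (KO) (log2 fold change 1.05, adjusted p = 0.199 in edgeR and 0.0302 in DESeq2). Nlrc5, also the activator of MHC class I genes, was at 2.5 and 4.48 CPM in the WT libraries. It was at 8.81 CPM in KO replicate 1 and 48.9 CPM in KO replicate 2, the library with the most RNA of T and natural killer cell genes. Its log2 fold change was 3.05 (adjusted p = 0.227 in edgeR and 0.00285 in DESeq2). Atg12, which with Atg5 forms a conjugate that binds RIG-I and MAVS, was at 38.1 and 44 CPM (WT) against 28.1 and 28.6 CPM (KO), and Atg5 at 38.0 and 43.2 against 61.7 and 51.8 CPM.

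**Figure D4:**
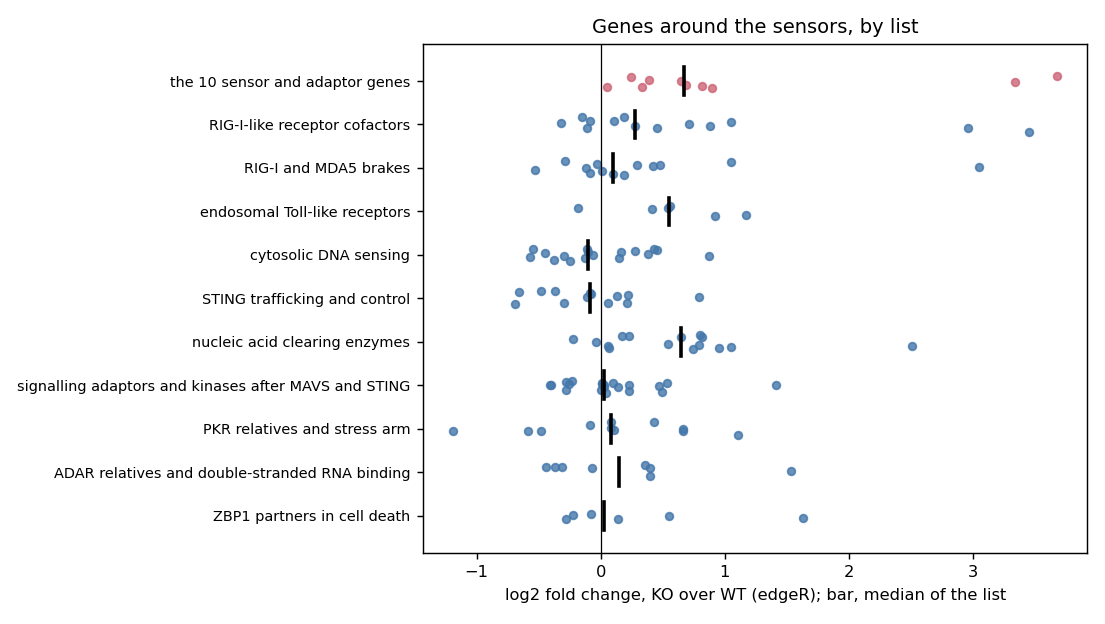
log2 fold change of KO over WT from edgeR for each tested gene of the 10 sensor and adaptor genes (red) and of 10 lists of related genes (blue), with a black bar at each list's median. The medians lie between -0.10 (cytosolic DNA sensing) and 0.67 (the 10 genes).

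Of 10 genes of the endosomal Toll-like receptors and their helpers 6 were tested, 5 higher and 1 lower (median 0.55 on the log2 scale), and 3, all higher, had an unadjusted p under 0.05 in edgeR. The receptors other than Tlr3 were scarcely measured. Tlr7, Tlr8, Tlr9 and Tlr13 were at most 0.321 CPM in any library and were not tested. Their chaperone Unc93b1, which carries them and Tlr3 to endosomes, was at 29.7 and 37.9 CPM in the WT libraries and 76.2 CPM in both KO libraries (log2 fold change 1.17, adjusted p = 0.144 in edgeR and 0.0021 in DESeq2). Myd88, the adaptor of the receptors other than Tlr3, was at 31.2 and 38.5 CPM (WT) against 51.9 and 49.6 CPM (KO) (0.54, edgeR adjusted p = 0.297). Cd14 was at 8.85 and 11.9 against 19.8 and 19.4 CPM (0.92, edgeR adjusted p = 0.265), and Hsp90b1, a chaperone of Toll-like receptors, at 600 and 704 against 1019 and 898 CPM.

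Genes of cytosolic DNA sensing and of STING control had medians near 0. Of 17 tested DNA sensing genes 7 were higher and 10 lower (median log2 fold change -0.10), and 1 of them, a lower one, had an unadjusted p under 0.05 in edgeR. That gene was Xrcc5, the Ku80 gene, at 35.7 and 28.7 CPM (WT) against 22.9 and 20.4 CPM (KO) (-0.57, edgeR adjusted p = 0.315). The others with the smallest p were Dhx9 (-0.45), Ddx41 (0.43) and Prkdc (-0.55). Of 13 genes of STING trafficking and control 5 were higher and 8 lower (median -0.09), with 0 at an unadjusted p under 0.05 in edgeR and 0 called by DESeq2. They were led by Trim32 (-0.48), Insig1 (-0.66), Slc19a1 (-0.37) and Enpp1 (-0.69).

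Most enzymes that clear nucleic acids had a fold change above 1. Of 15 tested 13 were higher and 2 lower (median log2 fold change 0.65), 7 were higher at an unadjusted p under 0.05 in edgeR (7.08% of all genes), and in 9 each KO value exceeded each WT value (25.5% of all genes). Dnase1, which digests DNA outside cells, was at 15.3 and 25.1 CPM (WT) against 127 and 105 CPM (KO) (2.51, adjusted p = 0.1 in edgeR and 3.23e-10 in DESeq2). Rnaset2a, a lysosomal ribonuclease gene with the near-identical copy Rnaset2b, was at 94.9 and 102 CPM (WT) against 211 and 170 CPM (KO) (0.95, 0.197 and 0.00834), and the split of reads between the copies is an estimate. Pnpt1, which degrades mitochondrial RNA, was at 41.8 and 46.9 against 78.2 and 75.9 CPM (0.80, 0.205 and 0.0454). Samhd1, a dNTP hydrolase, was at 59.8 and 66.2 against 93.3 and 117 CPM (0.74, edgeR adjusted p = 0.237).

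Further down the pathway, 20 adaptor, kinase and transcription factor genes after MAVS and STING had a median log2 fold change of 0.03. In edgeR 2 were higher at an unadjusted p under 0.05, Irf7 and Tank. Irf7, the interferon-inducible partner of IRF3, was at 28.4 and 59.8 CPM (WT) against 136 and 99.3 CPM (KO) (1.41, adjusted p = 0.227 in edgeR and 0.0243 in DESeq2). Tank, a scaffold of TBK1, was at 42.2 and 43.1 against 55.2 and 68.0 CPM (0.53, edgeR adjusted p = 0.297). Irf3 was at 49.5 and 59.0 CPM (WT) against 85.2 and 64.9 CPM (KO) (0.47, 0.374), and Ikbkb, an IkappaB kinase gene, had a log2 fold change of -0.40 (0.459). Of the 18 interferon genes on the list, 2 were listed in any library. They were Ifnz, at 0.257 CPM in WT replicate 1 alone, and Ifng, at 0.0683 to 0.204 CPM, and neither was tested.

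Among 11 genes of PKR's relatives and of the stress arm in which it acts, 7 were higher and 4 lower (median 0.08 on the log2 scale). At an unadjusted p under 0.05 in edgeR, 2 of the 11 were higher and 1 lower. The related kinase genes Eif2ak1, Eif2ak3 and Eif2ak4 were all lower, with log2 fold changes of -0.09, -0.59 and -0.48. Tarbp2, a double-stranded RNA-binding protein that inhibits PKR, was at 16.9 and 23.0 CPM (WT) against 55.8 and 30.3 CPM (KO) (1.11, edgeR adjusted p = 0.261), and Ppp1r15b, a phosphatase subunit that reverses eIF2alpha phosphorylation, at 175 and 180 against 298 and 262 CPM (0.66, 0.268). Eif2ak3, the kinase PERK of the endoplasmic reticulum, was at 45.8 and 41.1 CPM (WT) against 26 and 32 CPM (KO) (-0.59, 0.286), opposite in sign to Eif2ak2. Ddit3, the stress factor CHOP, was at 8.60 and 8.63 against 13.3 and 14 CPM (0.66, 0.35).

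Among 8 tested relatives of ADAR and double-stranded RNA-binding proteins 4 were higher and 4 lower. Adarb2, which encodes ADAR3, a member of the family without known editing activity, was at 13.0 and 13.2 CPM (WT) against 51.2 and 24.7 CPM (KO) (1.53, adjusted p = 0.211 in edgeR and 0.0173 in DESeq2). The expected counts of Adarb2 were not whole numbers, so part of its value rests on reads that also fit elsewhere. Adarb1, the second active editing enzyme, was at most 0.577 CPM and was not tested. Dhx30 (0.40) and Zfr (-0.44) had the next smallest p, with edgeR adjusted p values of 0.363 and 0.374.

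The nearest tested genes before and after each of the 10 on its chromosome, by start position, gave a local comparison. They were not always adjacent, with a gap of up to 245455 bases (Pmvk to Adar). Of the 20 tested genes that flank the 10, 4 had each KO value above each WT value and 3 had each below, against 25.5% and 24.6% of all genes, and their median log2 fold change was 0.01 (range -1.68 to 0.82). The highest was Gm6548, which overlaps Eif2ak2. Kat2a, whose annotated span lies 475 bases from that of Dhx58, had a log2 fold change of 0.50 (edgeR adjusted p = 0.335), against 3.68 for Dhx58. Pck1 and Pmepa1, on either side of Zbp1, were at -1.68 and -0.60 (edgeR adjusted p = 0.466 and 0.686), against 3.34 for Zbp1.

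**Figure D5:**
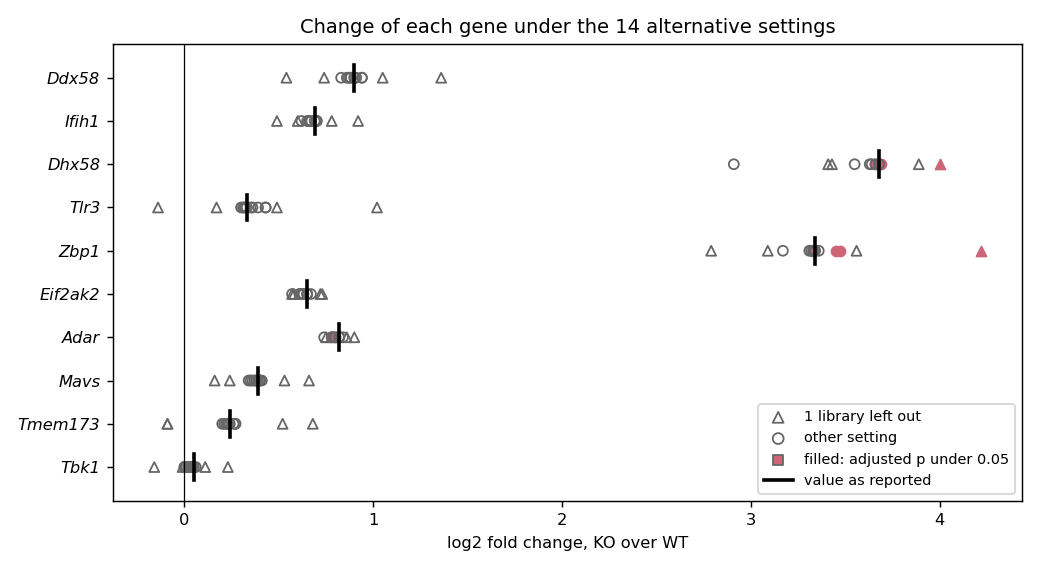
log2 fold change of each gene under 14 alternative settings: triangles leave out 1 library, circles change another setting, filled symbols have an adjusted p under 0.05, and the black bar is the value as reported. Dhx58 stays between 2.91 and 4.0 and Zbp1 between 2.79 and 4.22, while Tlr3, Tmem173 and Tbk1 reach below 0.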

How the data were processed

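Polyadenylated RNA of 4 libraries was sequenced as paired reads on a BGISEQ-500. Per the submitters' processing notes, the tools were Bowtie2 2.2.5 and RSEM 1.2.12 and the build was mm10. Per the file headers, the deposited tables give an expected count and an FPKM per gene, and a transcript length. The lowest FPKM listed was 0.01 in each table. Each table held 1 entry naming no gene, which was dropped (at most 0.000233% of counts). The sources used here do not say whether the reads keep strand.

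Tables were joined with pandas 2.3.3. Expected counts were rounded, and unlisted genes were entered as 0. KO was compared with WT in edgeR 4.0.16 (R 4.3.3) by the quasi-likelihood test, with genotype alone, TMM scaling, filterByExpr (12769 genes) and Benjamini-Hochberg adjustment over all of them. The SE is the log2 fold change divided by the root of F. CPM uses TMM factors. Alternatives used DESeq2 1.42.0 and limma 3.58.1. The labels do not say whether libraries come from separate mice, so p-values measure only the spread between these libraries, which may be technical.

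Coordinates are from RefSeq (GRCm38.p6, the build mm10), and exon overlaps from GENCODE M21. All 10 members were named, with the 4 genes of smallest p in each of 11 pathway lists, any gene called and those behind counts of 5 or fewer. From 1 list, 1 gene that this rule names is not reported here. The members and lists were chosen with earlier results of these data known.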

Additional observations from a re-analysis of the deposited data

How the results depend on the processing

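With 2 libraries a group, how many genes pass depends on the test. Of the 10 members, 0 were called higher as reported, 1 with no filter, 3 by DESeq2, and 0 to 2 when 1 library was left out, the 2 being Dhx58 and Zbp1 without WT replicate 2. Over all genes, 1 was called higher and 0 lower as reported. These counts were 0 higher with library size alone and with limma on log2(FPKM + 1) or log2(FPKM + 0.1), 19 and 8 with no filter, and 233 and 424 by DESeq2. With 1 library left out, which leaves a lone sample assumed to vary like the other group, they ranged from 0 to 72 and from 0 to 300, the highest without WT replicate 2. The replicate number, which goes with high or low Xist but is not tied to a shared source by the labels, gave as a block 2 members (Dhx58, adjusted p = 0.00816, and Zbp1, 0.00775, in edgeR), 46 genes higher and 70 lower. The deviations of same-numbered libraries from their group means had a weak negative correlation (r = -0.123 across 12769 genes). A crossed pairing, added after seeing this, gave 2 members, 65 genes higher and 99 lower. The cause of these differences was not tested. With 1 library left out, signs turned for Tlr3 without WT replicate 1 (-0.14), for Tmem173 without WT replicate 2 or KO replicate 2 (-0.09 for each), and for Tbk1 without WT replicate 2 (-0.01) or KO replicate 2 (-0.16); their ranges were -0.14 to 1.02, -0.09 to 0.68 and -0.16 to 0.23. The other 7 members kept their sign in the 14 alternatives. The number of members in which each KO value exceeded each WT value was 6 to 7 under other scalings, filters and FPKM, and 7 to 10 with 1 library left out. The share over all genes was not worked out for these settings. With 1 library left out fewer values have to be in order, so those counts are not comparable with the others. Across settings the median over all genes lay from -0.071 to 0.015 on the log2 scale. Dhx58 in WT has the fewest counts of any member, 39 and 57.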
